A study of Drosophila melanogaster with 4 samples.

Results

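The genes described here encode the proteasome of Drosophila melanogaster and 4 further proteins, which belong to the ubiquitin system or activate the core particle. They were chosen by symbol alone: every gene whose symbol starts with Prosalpha, Prosbeta, or Rpn or Rpt followed by a number, together with Ubi-p63E, Uch, TER94 and REG. This gave 43 of the 10843 genes with a probe set of their own on the array, 12 of the core particle, 14 of the regulatory particle, 13 paralogs of such subunits and the 4 others. These 4 are grouped under the label ubiquitin-related, although REG is a proteasome activator. Uba1, Prosbeta1, Rpn9, Rpn10, Rpt1 and Rpt6 were not analysed here, and Prosalpha1 shares its probe set with its copy Prosalpha1R. All samples were Kc167 cells, a female line derived from embryos, kept at 25 °C in serum-free CCM3 medium with penicillin and streptomycin. The ecdysone cells had 10 µM muristerone A, an agonist of the ecdysone receptor, for 72 h and were then mock-treated. The irradiated cells had no hormone for 72 h and were then exposed to 280 Gy of gamma rays. The combined cells had both treatments, and the control cells had 72 h without hormone and a mock treatment. All rested for 90 min before total RNA was taken. There was 1 array for each condition, without replicates, which limits the precision of every value.

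The proteasome is the protease complex that degrades proteins marked with ubiquitin chains. Its core particle is a barrel of outer alpha rings, which gate the entrance, and inner beta rings, which carry the proteolytic sites. The regulatory particle caps the barrel. Its base holds the Rpt ATPases, which unfold the substrate, and its lid holds Rpn11, which cuts the ubiquitin chain off. In flies and mammals, subunit genes are known to be induced together when proteasome activity is blocked.

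Signals of the core and regulatory particle genes lay above a floor of 119.4 units, the median of all signals, on all 4 arrays for 24 of 26 genes. The exceptions were Prosalpha7, above it on 2 arrays, and Rpn8, above it on 3. Of the 13 paralogs none was above the floor on all 4 arrays and 7 were below it on every array. Differences are given as log2 differences of signals raised to this floor, in 2 pairs of arrays for each treatment that share no array. The additive limma fit over 5981 probe sets uses the disagreement of these pairs as its 1 residual degree of freedom, so its p-values do not measure the spread between cultures. It tested 31 of the 43 genes, all 12 core, all 14 regulatory and all 4 other genes, with 1 paralog.

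**Figure D1:**
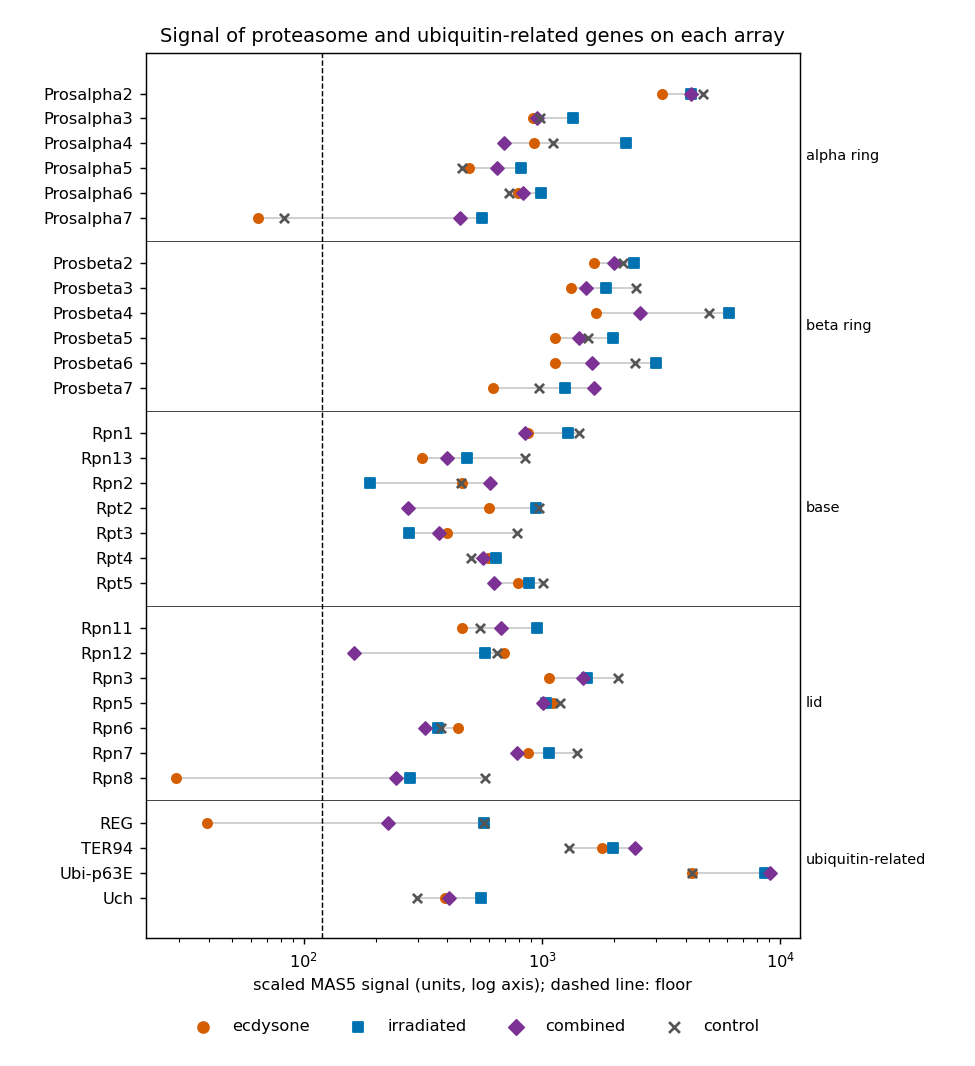
Scaled MAS5 signal (log axis) of each core particle, regulatory particle and ubiquitin-related gene on the ecdysone, irradiated, combined and control arrays, 1 point for each array. Positions compare arrays within a row, not genes with each other. For Prosbeta4 the ecdysone (1689) and combined (2565) points lie left of the control (5014) and irradiated (6071) points, and for Ubi-p63E the irradiated (8633) and combined (9037) points lie right of the control (4271) and ecdysone (4270) points.

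Subunit genes of the core particle lay lower with ecdysone. The median log2 difference of the 12 core genes was -0.32, with -0.43 for ecdysone against control and -0.32 for combined against irradiated cells, while the median over all probe sets tested was -0.02. All 12 had a mean difference below 0, as had 3075 of all 5981 probe sets tested. Of these 12 genes, 1 passed limma with a lower signal and none with a higher one, against 0.552% of all probe sets tested that were called lower and 1.44% called higher (1.99% in either direction). Of the 507 tested probe sets at or above the median signal of the core and regulatory genes, 20 were called lower and 40 higher. The core gene that passed was Prosbeta4, which is among these 507 and encodes a beta ring subunit without a proteolytic site. It had 1689 units in ecdysone cells against 5014 in control cells, and 2565 in combined cells against 6071 in irradiated cells. Both hormone-treated arrays were below both untreated ones, and the gene fell by 1.41 ± 0.26 on the log2 scale (standard error of the fit, limma adjusted p = 0.000946). Of the 9 other settings tried, 1 ended this call, a fit without the intensity trend (adjusted p = 0.716).

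Prosbeta6, another beta ring gene, had 1129 units in ecdysone cells against 2456 in control cells, and 1618 in combined cells against 3004 in irradiated cells. Its mean difference of -1.01 did not pass (limma adjusted p = 0.0747), while after quantile normalization it was -1.21 and passed (adjusted p = 0.0346). With its probe sets averaged it was -0.27, and its weaker probe set, above the floor on 2 arrays, was at 0.17. The beta ring held 5 of the 7 core genes whose hormone-treated arrays were both below both untreated arrays, namely Prosbeta2 to Prosbeta6. Over all probe sets tested this pattern had a share of 19.1%. It was 27.0% over the 507 bright ones, those with a mean signal at or above 914 units, the median of the 26 core and regulatory genes, a split chosen after the data were seen. All 7 of these core genes were bright. Prosbeta2 and Prosbeta5 carry the trypsin-like and the chymotrypsin-like site. Prosbeta5 had 1131 units in ecdysone cells against 1560 in control cells and 1428 in combined cells against 1979 in irradiated cells, nearly the same difference in both pairs (-0.46 and -0.47). Prosbeta2 was at -0.39 and -0.28.

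The alpha ring had a median of -0.22 and the beta ring one of -0.53, a difference with no test. It lay in the unirradiated pair (-0.05 for alpha and -0.78 for beta) more than in the irradiated pair (-0.32 and -0.38). Prosalpha6 had 789 units in ecdysone cells against 723 in control cells and 833 in combined cells against 992 in irradiated cells. Prosalpha5 had 493 against 460 units and 645 against 814 units in the same pairs. Both genes thus differed in direction between the pairs. Prosalpha3 and Prosalpha4 were the alpha ring genes with hormone-treated arrays below the untreated ones. Prosalpha4 had 925 units in ecdysone cells against 1112 in control cells, and 689 in combined cells against 2253 in irradiated cells. The probe set shared by Prosalpha1 and Prosalpha1R, which cannot show which of these genes it measured, had 379 units in ecdysone cells against 1387 in control cells and 917 in combined cells against 1393 in irradiated cells (mean difference -1.24, limma adjusted p = 0.126).

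The regulatory particle was also lower with ecdysone, at a median of -0.46 over 14 genes, with -0.52 for ecdysone against control and -0.24 for combined against irradiated cells. None of the 14 passed limma in either direction, and 2 had an unadjusted p under 0.05 with a lower signal, as did 3 of the 12 core genes. That share was 4.71% over all probe sets tested and 15.4% over the bright ones. Of the 14 genes, 7 had both hormone-treated arrays below both untreated arrays, which makes 14 of 26 together with the core, against the 19.1% above. In the opposite pattern, with both hormone-treated arrays above, there was 1 of the 26 genes. This share was 18.2% over all probe sets tested and 21.3% over the bright ones. Of the 26 genes, 16 were below 0 in both pairs and 1 above in both, against 26.2% and 25.4% of all probe sets tested. Over the bright ones the shares were 34.7% and 31.2%. The 26 genes are parts of 1 complex measured on the same 4 arrays, so they are not independent of each other.

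Among the Rpt ATPases of the base, Rpt2 had 597 units in ecdysone cells against 967 in control cells, and 273 in combined cells against 940 in irradiated cells. Its mean difference of -1.24 did not pass (limma adjusted p = 0.265). Rpn2, a scaffold subunit of the base, was the 1 gene with the opposite pattern, at 461 units in ecdysone cells against 457 in control cells and 606 in combined cells against 189 in irradiated cells. Nearly all of its difference lay in the irradiated pair (1.68, against 0.01 in the unirradiated pair).

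In the lid, Rpn8, the structural partner of Rpn11, had 29.0 units in ecdysone cells against 576 in control cells, and 243 in combined cells against 278 in irradiated cells. The ecdysone value is below the floor, so the difference of -2.27 in the unirradiated pair is a bound, and in the irradiated pair it was -0.20. Rpn6, which bridges lid and core, had 444 units in ecdysone cells against 378 in control cells and 323 in combined cells against 365 in irradiated cells. Rpn3 and Rpn7 lay lower in both pairs (-0.96 and -0.05 for Rpn3, -0.68 and -0.45 for Rpn7), without passing limma.

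**Figure D2:**
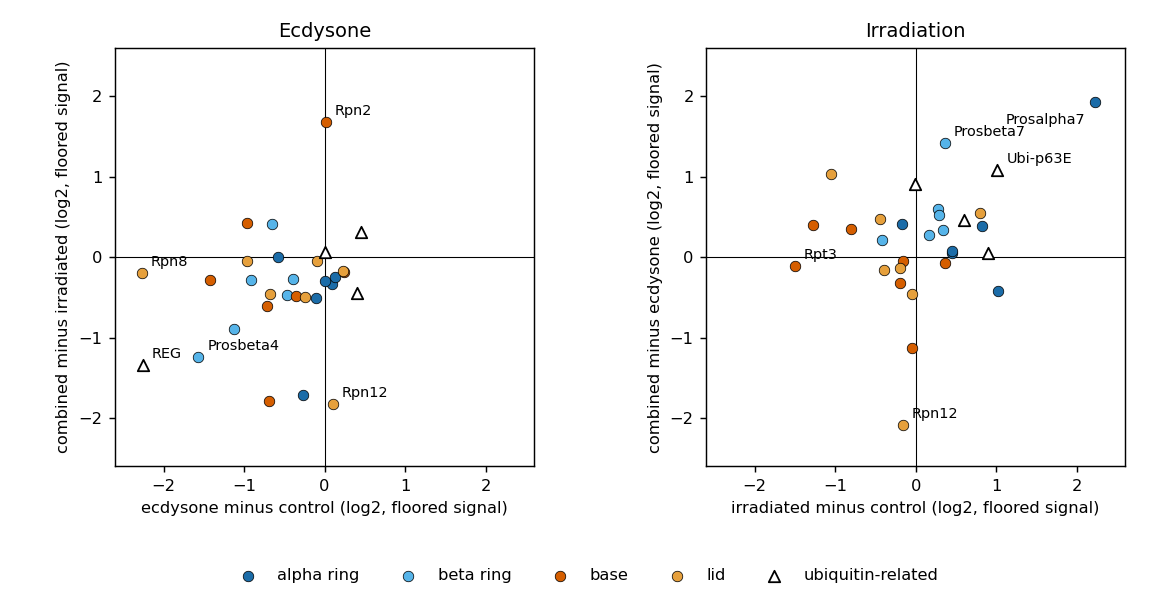
Log2 differences of floored signals in the 2 pairs of each treatment, 1 point for each gene. Left, ecdysone minus control against combined minus irradiated; right, irradiated minus control against combined minus ecdysone. On the left 16 of the 26 core and regulatory particle genes lie below 0 on both axes, with Prosbeta4 at -1.57 and -1.24, and on the right the core genes lie mostly in the upper right quadrant (9 of 12).

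With irradiation the medians of the core and the regulatory particle lay on opposite sides of 0, while single genes of each lay on both. The 12 core genes had a median of 0.32, with 0.35 for irradiated against control cells and 0.36 for combined against ecdysone cells, and with 0.16 after quantile normalization. The 14 regulatory genes had a median of -0.24, with -0.19 and -0.09. The mean of both pairs was above 0 for 11 of 12 core genes, all but Prosbeta3, and for 3 of 14 regulatory genes, Rpn11, Rpt4 and Rpn3. Over all probe sets tested it was above 0 for 2982 of 5981, and over the bright ones for 367 of 507. Of the core genes 9 were above 0 in both pairs and none below in both. Of the regulatory genes 1 was above in both and 8 below in both. Over all probe sets tested 25.0% were above and 24.3% below 0 in both pairs, and over the bright ones 48.5% and 13.2%. No core or regulatory gene passed limma for irradiation, where 0.468% of all probe sets tested were called higher and 0.0167% lower (0.485% in either direction). At an unadjusted p under 0.05 there were 2 higher core genes, and no lower or regulatory ones, against 4.36% higher and 2.51% lower of all probe sets tested and 16.8% higher of the bright ones. Both irradiated arrays were scanned before both unirradiated ones, and were washed in modules 1 and 2 of the fluidics station against modules 3 and 4. Irradiation, scan order and module cannot be told apart. In both ecdysone pairs the hormone-treated array was scanned directly after its untreated partner, and was washed in the next module (4 against 3, and 2 against 1). The ecdysone differences within pairs cannot be told apart from this order and module either.

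Prosalpha7 had the highest irradiation difference of the core, with 557 units in irradiated cells against 82.4 in control cells, and 453 in combined cells against 64.2 in ecdysone cells. Both unirradiated arrays were below the floor, so the fold was at least 4.21. It did not pass limma (adjusted p = 0.382), and the weaker probe set of the gene was above the floor on the combined array alone. Prosbeta7 had 1245 units in irradiated cells against 972 in control cells and 1653 in combined cells against 620 in ecdysone cells (mean difference 0.89, limma adjusted p = 0.563). Prosalpha5 and Prosalpha6 were the other core genes whose irradiated arrays were both above both unirradiated ones, which makes 4 of 12 core genes, against 16.6% of all probe sets tested. By signal these were 1 of 9 bright core genes, against 30.8% of all bright probe sets, and all 3 dimmer ones, against 15.3% of all dimmer probe sets.

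The core genes with the lowest irradiation differences were Prosbeta3 and Prosalpha2. Prosbeta3 had 1852 units in irradiated cells against 2472 in control cells and 1523 in combined cells against 1316 in ecdysone cells, a mean of -0.10. Prosalpha2 of the alpha ring had 4226 against 4737 units and 4236 against 3186 units in these pairs. Prosbeta4 and Prosbeta6, lowest with ecdysone, were at means of 0.44 and 0.41 with irradiation.

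Within the regulatory particle, Rpn12, a lid subunit, had 578 units in irradiated cells against 645 in control cells, and 163 in combined cells against 693 in ecdysone cells. The combined array alone set this gene apart, with a difference of -2.09 in its pair against -0.16 in the other (limma adjusted p = 0.728 for the mean of -1.12). The ATPase gene Rpt3 had 276 units in irradiated cells against 782 in control cells and 370 in combined cells against 400 in ecdysone cells. Rpn5 and Rpn6 of the lid were likewise lower on both irradiated arrays, by means of -0.16 and -0.25. These 4 of 14 genes compare with 16.1% of all probe sets tested.

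Rpn11, which encodes the deubiquitinase of the lid, was the regulatory gene with irradiated arrays above the unirradiated ones. It had 955 units in irradiated cells against 548 in control cells and 675 in combined cells against 463 in ecdysone cells, a mean difference of 0.67 (limma adjusted p = 0.844). Rpt4 was the next highest, at 642 against 501 units and 564 against 591 units in the same pairs.

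The core minus regulatory difference between these medians was 0.56 for irradiation, with 0.54 for irradiated against control and 0.45 for combined against ecdysone cells. For ecdysone it was 0.14, with 0.09 for ecdysone against control and -0.08 for combined against irradiated cells, so no side was lower in both. Both parts of each particle lay on the same side with irradiation, the alpha ring at 0.28, the beta ring at 0.37, the base at -0.26 and the lid at -0.16. These medians have no test, since each condition has 1 array and subunits are not replicates. Signal strength moved with the irradiation difference: among all probe sets tested, the 507 bright ones had a median of 0.22, and the 5474 dimmer ones had -0.04. On the brighter side 9 core genes had a median of 0.30 and 4 regulatory genes -0.13. On the dimmer side 3 core genes had 0.61 and 10 regulatory genes -0.26. For ecdysone the brighter and dimmer probe sets had medians of -0.02 each, against -0.47 and -0.12 for the core genes and -0.54 and -0.40 for the regulatory genes.

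**Figure D3:**
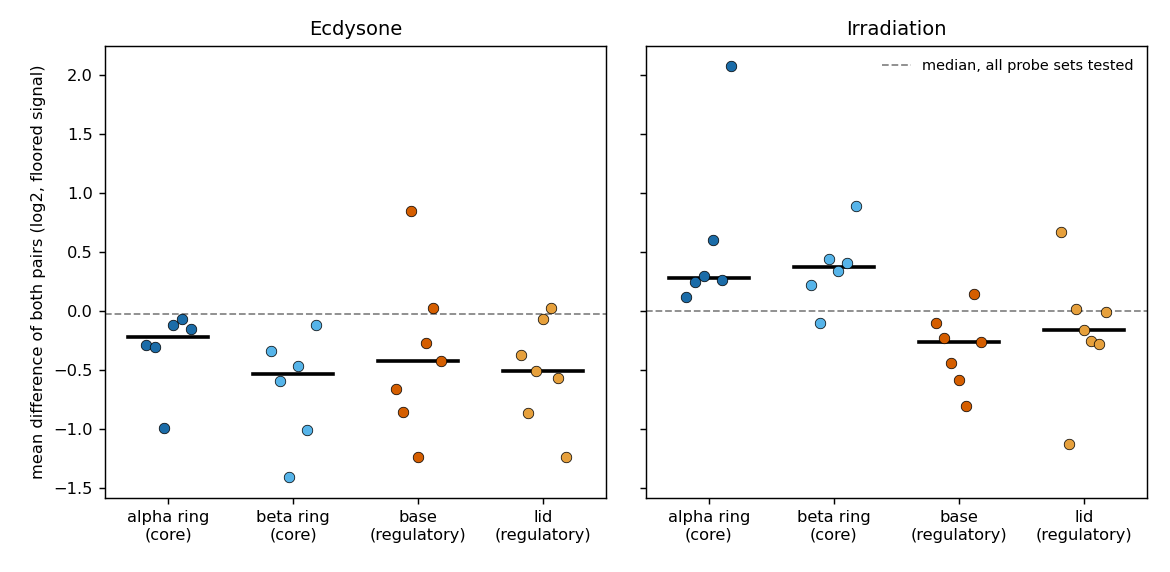
Mean log2 difference of both pairs for each gene of the alpha ring, beta ring, base and lid, with ecdysone (left) and irradiation (right). Black bars are medians of the 6 or 7 genes and the dashed line is the median over all 5981 probe sets tested. With ecdysone all 4 bars lie below the line (-0.22, -0.53, -0.42 and -0.50), and with irradiation both core bars lie above it (0.28 and 0.37) and both regulatory bars below it (-0.26 and -0.16).

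In combined cells against control cells the core genes had a median of -0.12, with 8 of 12 below 0, and the regulatory genes one of -0.72, with 11 of 14 below 0. All probe sets tested had a median of 0.0, with 2928 of 5981 below 0, and the bright ones a median of 0.17, with 196 of 507 below 0. Of the 26 core and regulatory genes the lowest were Rpn12 at -1.98 and Rpt2 at -1.82, and the highest Prosalpha7 at 1.92 and Prosbeta7 at 0.77. This pair shares its arrays with the pairs above and adds no independent measurement.

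Ubi-p63E encodes polyubiquitin, a chain of ubiquitin units joined head to tail that is cut into single ubiquitin, and is known as stress-inducible. It had 8633 units in irradiated cells against 4271 in control cells, and 9037 in combined cells against 4270 in ecdysone cells. Irradiated arrays lay above the unirradiated ones by nearly the same amount in both pairs, and the gene rose by 1.05 ± 0.25 on the log2 scale (standard error of the fit, limma adjusted p = 0.0437), or 2.07-fold. It was the 1 member that passed for irradiation, where 28 of all 5981 probe sets tested and 21 of the 507 bright ones were called higher. With Prosalpha7 it made up the 2 members at least 2-fold higher in both pairs, as were 3.18% of all probe sets tested and 17 of the 507 bright ones. The call is narrow, since 7 of the 9 other settings tried gave an adjusted p above 0.05, from 0.0507 with the values as deposited to 0.846 without the intensity trend. With ecdysone it differed by 0.00 and 0.07 (limma adjusted p = 0.982).

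Ubi-p5E, a second polyubiquitin gene, is measured by a probe set marked as shared by a sequence family, so transcripts of other polyubiquitin genes may add to it. It had 15108 units in irradiated cells against 6181 in control cells and 17460 in combined cells against 13891 in ecdysone cells (limma adjusted p = 0.257). The control array stood apart as the lowest of the 4. RpL40 and RpS27A encode ubiquitin fused to a ribosomal protein. RpL40 had 3557 units in irradiated cells against 2724 in control cells and 3990 in combined cells against 2670 in ecdysone cells. RpS27A had 4353 against 4988 units and 5398 against 3009 units. Neither passed limma for either treatment.

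**Figure D4:**
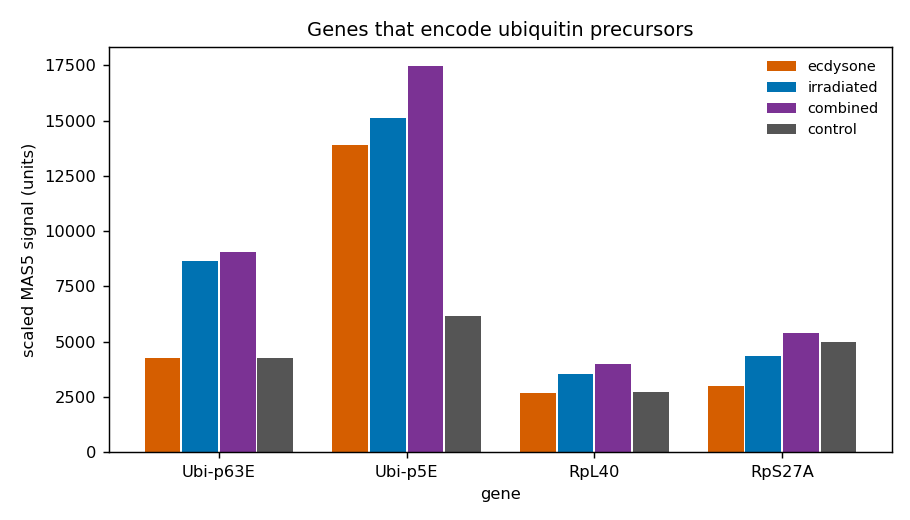
Scaled MAS5 signal of Ubi-p63E, Ubi-p5E, RpL40 and RpS27A on the ecdysone, irradiated, combined and control arrays, 1 bar for each array and an axis that starts at 0. Heights compare arrays within a gene. For Ubi-p63E the irradiated and combined bars (8633 and 9037) are above the ecdysone and control bars (4270 and 4271), and for Ubi-p5E the control bar (6181) is the lowest.

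REG encodes the activator that caps the core particle in place of the regulatory particle and opens it without ATP. It had 39.2 units in ecdysone cells against 570 in control cells, and 225 in combined cells against 568 in irradiated cells. Both hormone-treated arrays were below both untreated ones, by at least 3.47-fold on average over both pairs of floored signals, and it did not pass limma (adjusted p = 0.194). With Prosbeta4 it made up the 2 members at least 2-fold lower in both ecdysone pairs, where 3.33% of all probe sets tested were. None was at least 2-fold higher in both, against 4.7%.

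TER94 encodes the p97 ATPase that pulls ubiquitinated proteins out of complexes and membranes. It had 1979 units in irradiated cells against 1302 in control cells and 2465 in combined cells against 1784 in ecdysone cells, higher in both irradiation pairs (0.60 and 0.47, limma adjusted p = 0.783). In the ecdysone pairs it was at 0.45 and 0.32 (limma adjusted p = 0.751). Uch, a ubiquitin hydrolase that frees ubiquitin from small adducts, had 555 units in irradiated cells against 297 in control cells and 408 in combined cells against 392 in ecdysone cells (mean difference 0.48, limma adjusted p = 0.926). With ecdysone its pairs differed in direction, at 0.40 and -0.44. With Ubi-p63E, these 3 of 4 genes had irradiated arrays above the unirradiated ones, against 16.6% of all probe sets tested and 30.8% of the bright ones.

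The paralogs are copies of subunit genes, many of them known from testis. Rpt3R was the 1 paralog bright enough for the fit, with 148 units in ecdysone cells against 290 in control cells and 100.4 in combined cells against 266 in irradiated cells (mean difference -1.06, limma adjusted p = 0.792). Prosbeta5R1 had 14.6 units in irradiated cells against 276 in control cells and 16.5 in combined cells against 250.3 in ecdysone cells, at least 2.20-fold lower on average over both pairs of floored signals and too weak on average for limma. It was the 1 member at least 2-fold lower in both irradiation pairs. Among all probe sets tested, which do not include it, the share was 2.61%. Rpt4R had its highest signal in ecdysone cells, 415 units, against 25.7 in control cells, with 55.5 in combined cells against 181 in irradiated cells, and had the largest difference between pairs of all members (-2.40). Prosalpha3T, Prosalpha4T2 and Prosalpha6T were above the floor on 1 array each. Prosalpha4T1, Prosbeta2R1, Prosbeta2R2, Prosbeta4R1, Prosbeta4R2, Rpn12R and Rpn13R were below it on all 4, from 20.8 to 117.2 units. Of 10 testis marker genes, 4 were below the floor on every array and none was above it on all. Mst87F, the 1 of them tested, was above it on 3 arrays. It was higher in both ecdysone pairs (1.87 and 1.29) without passing limma (adjusted p = 0.455).

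Further genes of the ubiquitin system were taken from 6 lists of 110 names, of which 80 matched a measured gene and 56 could be tested. None passed limma for either treatment. At an unadjusted p under 0.05 there were 1 higher and 2 lower with ecdysone, and 3 higher and 1 lower with irradiation, against shares of 5.05%, 4.71%, 4.36% and 2.51% over all probe sets tested. The 4 ubiquitin and ubiquitin-like precursor genes had a median irradiation difference of 0.65 and an ecdysone difference of 0.01. The 11 genes of E1 and E2 enzymes, which activate and carry ubiquitin and its relatives, were at -0.54 with ecdysone and 0.13 with irradiation. The 31 E3 ligases, which choose the substrate, were at 0.06 and 0.17. The 18 deubiquitinases were at -0.39 and 0.00, the 8 cofactors of p97 and shuttle proteins at -0.10 and -0.22, and the 8 assembly factors and regulators at 0.17 and 0.10. These medians include genes too weak for the fit, which tested 20 of the E3 ligases and 10 of the deubiquitinases. In each of these 2 lists 4 genes were below the floor on every array, which fixed their differences at 0.

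The lowest with ecdysone were Aos1, a subunit of the enzyme that activates the ubiquitin-like SUMO, and Der-2, a derlin of the endoplasmic reticulum. Aos1 had 147 units in ecdysone cells against 494 in control cells and 31.6 in combined cells against 438 in irradiated cells (limma adjusted p = 0.289). Der-2 had 31.0 against 494 units and 266 against 393 units in the same pairs. The ligase genes Ufd4 and ctrip were highest, at 1.81 and 0.89 for Ufd4 and at 0.91 and 0.94 for ctrip. With irradiation Npl4, a cofactor of p97, was lowest, with 248 units in irradiated cells against 599 in control cells and 266 in combined cells against 906 in ecdysone cells (limma adjusted p = 0.400). The deubiquitinase gene scny was at -1.64 and -0.89. Its irradiated signal of 63.2 units was below the floor, so the -1.64 is a bound. Cul3, a scaffold of ubiquitin ligases, was at 0.73 and 2.03, and APP-BP1, a subunit of the enzyme that activates Nedd8, at 0.65 and 1.90. For APP-BP1 the ecdysone signal of 118.6 units was just below the floor, so the 1.90 is a bound.

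A further 3 genes were picked with their values already in view. The gene of the transcription factor cnc, a fly relative of the mammalian factors that induce proteasome genes, had 588 units in ecdysone cells against 845 in control cells and 613 in combined cells against 922 in irradiated cells. These values of cnc are from the brightest of its 4 probe sets. Its list, the assembly factors and regulators, had a median of 0.17 with ecdysone, in the other direction. Pomp, an assembly chaperone of the core, had 282 against 482 units and 570 against 527 units in the pairs given for cnc. Sem1, a small subunit of the lid outside the naming rule, had 792 against 495 units and 678 against 669 units. Both of its hormone-treated arrays were thus above both untreated ones, as for Rpn2, with a mean difference of 0.35. None of the 3 genes passed limma.

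Markers of plasmatocytes, the blood cells that Kc167 cells resemble, were measured for 9 listed genes, of which srp, Hml, Pxn and Nplp2 were above the floor on all 4 arrays. The phagocytosis receptor gene crq was below it on every array. With ecdysone 2 of the 7 tested rose (Pxn and Col4a1) and 2 fell (Hml and Nplp2), where 1.44% of all probe sets tested were called higher and 0.552% lower. None passed for irradiation, where 0.485% were called. Their summed signal was 11406 units in ecdysone cells against 13057 in control cells, and 14106 in combined cells against 17226 in irradiated cells. Nplp2 set the direction of this sum: without it the other 8 summed to 6020 units in ecdysone cells against 2176 in control cells, and to 9016 in combined cells against 2287 in irradiated cells. In these pairs Pxn had 3091 against 598 and 5560 against 711 units, and Col4a1 had 1806 against 50.5 and 1892 against 113 units. Hml went the other way, with 284 against 922 and 240 against 1110 units. Of 4 neuron, 4 muscle and 4 fat body markers measured, none was above the floor on all 4 arrays and none passed limma. The 4 fat body markers were each above it on 3 arrays. Of these Yp2 was at least 2-fold higher in both ecdysone pairs, as were 4.7% of all probe sets tested. In both irradiation pairs Fbp1 was at least 2-fold higher (3.18% of all tested) and Lsp2 at least 2-fold lower (2.61%). The part of these marker shifts in the lower subunit signals was not tested, and fewer cells of a type and less RNA per cell cannot be told apart.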

How the data were processed

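Expression was measured on Affymetrix DrosGenome1 arrays, 1 for each condition. The deposited signal intensities, on a linear scale, were made by the authors with MAS5, per the submitters' processing notes, and have a trimmed mean of 200.0 on each array. The 4 arrays share a chip lot and a scan day, per the file headers. Of 14010 probe sets, 44 controls were left out. Platform annotation with symbols updated from RefSeq named 12393 probe sets, and 49 kept the platform name, while 327 with several genes and 1197 with none were not named. Where a gene had several probe sets, the one with the highest mean log2 signal was used.

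Arrays were scaled to a common mean after trimming 2% at each end, which changed none by more than 0.0667%. The unfloored log2 signals were fitted with 1 coefficient for each treatment, for the 5981 probe sets with a mean log2 signal above that of 119.4 units (limma 3.58.1, R 4.3.3, prior following intensity), with Benjamini-Hochberg adjustment over all of them and a threshold of 0.05. The prior had a median of 29.4 degrees of freedom against 1 residual one. Rose and fell are used for genes past this threshold. Joins used pandas 2.3.3 in Python 3.11.15. Genes named with values are the 4 ubiquitin-related genes, those called by limma or at least 2-fold different in both pairs, the 2 highest and 2 lowest of each particle and of the other lists with either treatment, and 3 whose pairs differed most from each other; further members were named with their values in view. Members and lists were chosen with earlier results of these data known. Promoter motifs were not analysed here.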

Additional observations from a re-analysis of the deposited data

Results flagged for a closer look

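Members whose 2 pairs of arrays moved at least 1.5-fold in opposite directions were singled out, and the difference between pairs was not tested, since each condition has 1 array. Among all probe sets tested, 749 of 5981 showed this for ecdysone and 780 for irradiation. Rpn8 was at -1.05 for irradiated against control cells and at 1.03 for combined against ecdysone cells, with an ecdysone signal below the floor. Rpt4R was at 1.80 for ecdysone against control cells and at -0.60 for combined against irradiated cells. The same 4 signals, of which the combined and control ones were below the floor, gave Rpt4R 0.60 for irradiated against control cells and -1.80 for combined against ecdysone cells.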

How the results depend on the processing

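Of the 2 calls among members, Prosbeta4 with ecdysone lost its limma call in 1 of the settings tried and Ubi-p63E with irradiation in 7. Prosbeta4 ranged from -1.58 to -1.40 (adjusted p 7.63e-05 to 0.716) and Ubi-p63E from 0.82 to 1.13 (adjusted p 0.0116 to 0.846). The limma fit called 2 members lower with ecdysone after quantile normalization (Prosbeta4 and Prosbeta6, Prosbeta6 at an adjusted p of 0.0346) and 0 without the intensity trend, where 0 of all probe sets were called and 1 member had an unadjusted p under 0.05. For irradiation it called 0 members higher after quantile normalization, with values as deposited, with the floor at the 60th percentile or no floor, without the trend, with a robust prior, or with the probe sets of each gene averaged. At a fold of 1.5 in both pairs 6 members were lower with ecdysone, as were 9.1% of all probe sets tested, and at a fold of 3 there were 0 (0.652%). With irradiation 1 was higher (0.518%) and 0 lower (0.301%) at a fold of 3, and 2 were lower with no floor (4.21%). Those 2, Prosalpha6T and Prosbeta5R1, were too weak for the fit and are not among the probe sets tested that gave this share. The ecdysone median of the core was -0.49 after quantile normalization, -0.43 in the pair without irradiation and -0.15 with paralogs kept in, and that of the regulatory particle was -0.24 in the pair with irradiation. The ecdysone difference between core and regulatory particle turned to -0.080 in the pair with irradiation. The irradiation median of the core was 0.40 with median scaling, 0.16 after quantile normalization, 0.28 with averaged probe sets, 0.35 and 0.36 in the 2 pairs and 0.25 with paralogs. In settings chosen after seeing the data it was 0.30 without members under the floor on any array and 0.34 with the shared Prosalpha1 probe set. The regulatory median was -0.16 with median scaling and -0.089 in the pair with ecdysone. The core minus regulatory difference with irradiation was 0.45 after quantile normalization, 0.45 in the pair with ecdysone and 0.47 with paralogs. Quantile normalization turned Prosalpha2 with irradiation to -0.19 and Ubi-p63E with ecdysone to -0.22. The cause of these shifts was not tested. No paired analysis was possible because the labels give no replicate numbers and each condition has 1 array. The pairs named here are pairs of conditions. No replicate could be left out, and limma could not be run within 1 pair.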
